A study of Mus musculus with 6 samples.

Results

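The population described here is a set of fibroblasts of the lower abdominal muscle (LAM) that carried transcripts of at least 2 of the 4 genes Lgr5, Tspan8, Epyc and Egfl6. Barcodes were taken with at least 1000 unique molecular identifiers (UMIs, each standing for 1 captured RNA molecule), at most 10% of UMIs from mitochondrial genes, at least 5 Col3a1 UMIs and no UMI of Pecam1 or Upk3b, which mark endothelium and mesothelium. Of 63647 barcodes, 53443 passed the first 2 limits, 21463 of those met the Col3a1, Pecam1 and Upk3b conditions (Col3a1+ cells), and 661 of these were members. Single-cell RNA sequencing was done with the 10x Genomics 3′ kit on LAM from 3 wild-type (WT) and 3 Aromhum male mice, 1 library a mouse. All 6 animals were on the FVB/N background and 9 to 10 weeks old. Aromhum mice carry a transgene of the human aromatase gene CYP19A1 with its own promoters, so that estrogen is made in their tissues, and the labels give them scrotal hernia. Per the study's methods, tissue was handled on separate dates, each with a WT mouse and an Aromhum littermate, but the labels do not tie a mouse number to a date. The mice are called WT 1 to 3 and Aromhum 1 to 3 after the labels, and each p-value measures the spread between mice.

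Lgr5 is a receptor for R-spondins, secreted proteins that strengthen Wnt signaling, and is best known as a marker of epithelial stem cells. Tspan8 is a tetraspanin, a membrane protein with 4 transmembrane segments, Epyc is a small leucine-rich proteoglycan known from cartilage, and Egfl6 is a secreted protein of the extracellular matrix. Elastic fibers, which let connective tissue recoil, are built from elastin (Eln) on a scaffold of fibrillin microfibrils, with fibulins as linkers and lysyl oxidases as crosslinking enzymes.

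Tspan8 and Lgr5 lie next to each other in the mouse genome. In the GENCODE annotation of GRCm38, Lgr5 spans chr10:115450311-115587780 on the minus strand and Tspan8 chr10:115816832-115849893 on the plus strand, with 229051 bases and 0 protein-coding genes between them. Epyc lies on the same chromosome at chr10:97644068-97682454, Egfl6 at chrX:166523007-166585720 and Eln at chr5:134702593-134747323. The 250 bases before the start of Tspan8 and Epyc, the pair of rule genes seen together most often, are shown from RefSeq on GRCm38.p6, taking for Epyc the start that matches its gene span, both on the plus strand, at chr10:115817034-115817283 and chr10:97643818-97644067. The RefSeq start of Tspan8 lies inside the GENCODE gene span, which begins at an earlier start, so this window lies within that span. RefSeq gives another start of Epyc further in, and its window at chr10:97646853-97647102, not shown, holds the TCF/LEF letters below on the opposite strand. Capitals mark the octamer motif in Tspan8, with the letters ATGCAAAT, and in Epyc the TCF/LEF motif known from Wnt target genes, with the letters CTTTGAT.
Tspan8: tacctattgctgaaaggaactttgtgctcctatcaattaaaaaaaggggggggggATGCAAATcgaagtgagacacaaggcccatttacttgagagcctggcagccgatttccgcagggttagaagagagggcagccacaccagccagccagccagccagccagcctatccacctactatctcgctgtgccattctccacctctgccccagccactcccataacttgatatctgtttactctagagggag
Epyc: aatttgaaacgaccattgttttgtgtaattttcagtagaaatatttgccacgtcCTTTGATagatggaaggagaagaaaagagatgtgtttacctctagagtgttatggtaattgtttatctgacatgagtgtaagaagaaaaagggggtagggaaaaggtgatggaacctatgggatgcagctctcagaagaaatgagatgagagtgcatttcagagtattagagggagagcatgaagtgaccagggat
These 2 motifs were added to the search after the sequences had been read, and their matches are a description only. The motifs searched first had no match on either strand of these windows, namely the TATA box with the letters TATAAA, the AP-1 site known as TGACTCA and the estrogen receptor half-site, which reads AGGTCA. On either strand, the octamer is in 1.6% and the TCF/LEF letters in 3.21% of 32851 mouse promoter windows of this table, against 12.4% for the TATA box, 4.46% for AP-1 and 14% for the half-site. The window of Egfl6 held none of the 5 motifs.

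The WT library with the fewest members stood apart. WT 2 gave 10 members, against 201 and 40 in WT 1 and WT 3 and 126, 250 and 34 in Aromhum 1, 2 and 3. Of the WT 2 barcodes, 29.5% were over the mitochondrial limit, against 6.86% to 11.7% in the other 5 libraries, and 1 UMI in its summed members equals 8.06 CPM (counts scaled to a total of 1000000). Summed over WT 2 members, 8 glial markers reached 2739 CPM and 8 muscle fiber markers 5873 CPM, against 15.3 to 137 CPM and 32.5 to 401 CPM in the other mice. Genotype results in members are therefore also given without WT 2, and the part of glial or muscle RNA in them was not tested. The CYP19A1 transcript had 0 UMIs in each WT library and 740, 768 and 755 UMIs in the Aromhum libraries, which checks the genotype labels. Members held 3, 3 and 0 of those CYP19A1 UMIs. Letters of 943 barcodes occurred in more than 1 library, and 16 members had such a barcode.

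Tspan8 was the rule gene seen most often in members. It had a UMI in 554 of the 661 members, Epyc in 427, Lgr5 in 334 and Egfl6 in 225. Exactly 2 of the 4 genes were seen in 470 members, 3 in 164 and all 4 in 27. The most frequent combination was Tspan8 with Epyc and neither of the others, in 254 members (38.4%), followed by Lgr5 with Tspan8 in 79 and Lgr5 with Egfl6 in 61.

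The combinations differed between mice. Tspan8 and Epyc were seen together, with or without the others, in 44.3%, 0% and 45.0% of members in WT 1, 2 and 3 and in 65.9%, 69.6% and 50% in Aromhum 1, 2 and 3. Lgr5 had a UMI in 66.2%, 70.0% and 75.0% of WT members and in 38.9%, 37.6% and 61.8% of Aromhum members. The first share was higher and the second lower in every Aromhum mouse than in every WT mouse, with Aromhum 3 nearest to WT. These values come from the genes that chose the members and are given with no test.

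**Figure D1:**
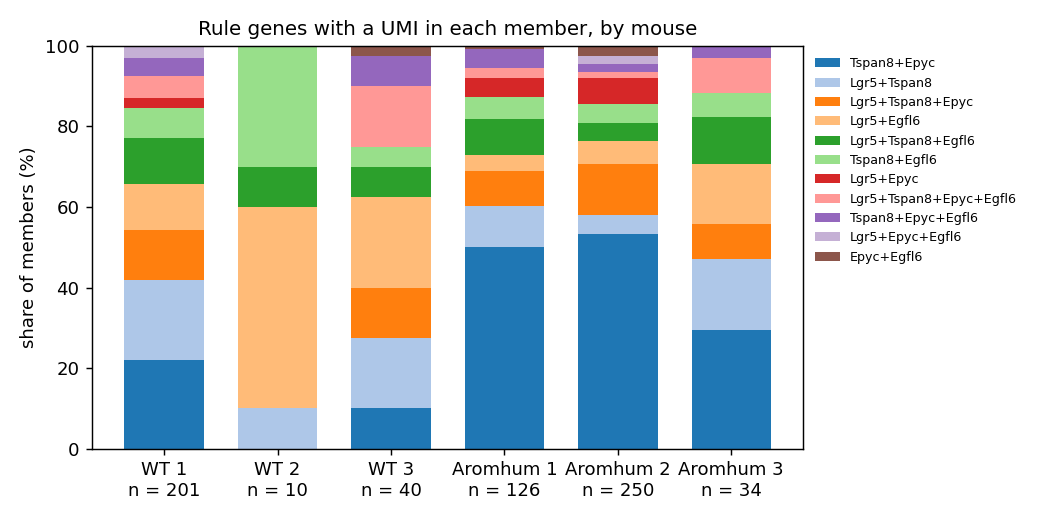
Share of members (%, y axis) with each combination of the 4 rule genes, stacked to 100% for each mouse (x axis, with the number of members). Tspan8 with Epyc alone is the largest block in WT 1 and in Aromhum 1, 2 and 3, and is absent from WT 2, which has 10 members.

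Across all Col3a1+ cells the 4 genes tended to be found in the same cells. Tspan8 had a UMI in 34.3% of the 685 cells with Lgr5 and in 2.66% of those without. Of the 787 cells with Tspan8, 48.4% had Epyc, against 2.35% of cells without Tspan8. Pooled over mice, Egfl6 was tied less closely to Epyc, with 8.07% of the 867 Epyc cells holding it against 6.40% of the rest. Most Epyc cells came from Aromhum 1 and 2, where Egfl6 was in 3.16% and 3.04% of other Col3a1+ cells, against 6.12% to 11.3% in the other mice. Within WT 1, WT 3 and Aromhum 3 the gap was wider than in the pooled shares. Median UMIs were 9883 in cells with Tspan8 and 10147 in cells without, and 11062 in cells with Egfl6 and 10071 in cells without. These shares are descriptions over cells, which share 6 libraries.

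The rule genes were also counted in a gate of 11808 endothelial cells, since free RNA in droplets can give UMIs in cells that do not express a gene. Tspan8 had a UMI in 2.60% of endothelial cells (median 7863.5 UMIs) and in 1.12% of other Col3a1+ cells (median 10150.5 UMIs). Other Col3a1+ cells hold fewer than 2 rule genes by definition. Cells with Tspan8 and another rule gene were thus taken out of them, but not out of the endothelial gate. The shares therefore cannot decide whether other Col3a1+ cells expressed Tspan8, and this limit holds for every such comparison in this paragraph. The endothelial share was 1.95%, 2.13% and 2.05% in WT 1, 2 and 3 and 4.69%, 3.46% and 2.27% in Aromhum 1, 2 and 3, with up to 43 UMIs in a cell, and whether these UMIs were free RNA was not tested. In WT 1 the order was the other way, with 2.58% of other Col3a1+ cells against 1.95% of endothelial cells. Lgr5, Epyc and Egfl6 were seen in 0.593%, 0.263% and 0.576% of endothelial cells and in 1.69%, 2.12% and 5.60% of other Col3a1+ cells. When each cell was thinned to 3000 UMIs, which left out 18 members, Tspan8 had a UMI in 69.5% of members, 0.737% of other Col3a1+ cells and 0.903% of endothelial cells. In WT 1 the thinned shares were 2.03% of other Col3a1+ cells and 0.868% of endothelial cells.

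Most members fell in 1 cluster by their other genes. The Col3a1+ cells were clustered without the 4 rule genes, which gave 28 clusters. One cluster of 857 cells held 469 members (71.0%), and its leading genes were Tspan8, Epyc, Fgf9, Lgr5, Eln, Nkain4, Angptl7, Sema3d, Cldn10, Spock2, Itgbl1 and Sfrp2, where the rule genes were ranked afterwards. Of the members, 149, 1 and 18 in WT 1, 2 and 3 and 91, 191 and 19 in Aromhum 1, 2 and 3 fell in it. Of the remaining 192 members, 55 fell in a cluster of 552 cells led by Mup5, Lars2 and Gas1, with Tspan8 also among its leading genes. Another 25 fell in a cluster of 1574 cells led by Mup5, Igfbp2 and Gas1, and the rest were spread over other clusters. The cluster of 857 cells also held 388 cells that were not members, with 187 CPM of Tspan8. Of the members, 133 also met a gate for tenocytes (at least 2 of Tnmd, Comp, Wif1 and Thbs4) and 39 a gate for Dmkn fibroblasts (at least 2 of Dmkn, Sbsn and Krtdap). The 5 markers given for the population were Lgr5, Tspan8, Epyc, Egfl6 and Eln, and the mean level of each was higher in members than in other Col3a1+ cells and in the tenocyte, Dmkn and endothelial gates. The rule fixes this for 4 of the 5, and Eln is the marker it did not use. Egfl6 was not particular to members, with a UMI in 34.0% of members and 23.9% of the tenocyte gate. After thinning to 3000 UMIs these shares were 17.9% and 11.0%. Eln was higher in members than in other Col3a1+ cells of 5 mice, whereas WT 2 had less Eln in its members and 0 Epyc UMIs, which goes against the label there.

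Markers of other cell types were then summed over members. Pecam1 and Upk3b were at 0 by the rule, and Pax7 and Myod1, which define muscle stem cells, were at 0 without it. The other 6 of 8 muscle stem cell markers had UMIs in members. The 8 summed to 250 CPM in WT 2 members, against 126 CPM in its other Col3a1+ cells. In the other mice they summed to 16.4 to 41.3 CPM in members, against 69.0 to 180 CPM. Summed over 8 markers each, endothelial genes reached 38.1 to 84.5 CPM and immune genes 16.1 to 153 CPM over the 6 mice, against 63.4 to 93.8 and 76.3 to 217 CPM in other Col3a1+ cells. In single mice outside WT 2, members exceeded other Col3a1+ cells in immune genes in WT 1 (153 against 84.6 CPM), smooth muscle and pericyte genes in WT 1 (361 against 235 CPM), glial genes in Aromhum 1 (137 against 56.2 CPM) and muscle fiber genes in Aromhum 2 (401 against 388 CPM). Their part in other results was not tested. Scrublet marked 5 members (0.756%) and 1.47% of other Col3a1+ cells as doublets. It marked 0 cells in WT 2 and WT 3, so doublets were not screened there.

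Cells just outside the rule were set beside those just inside. At least 2 rule genes with 1 to 4 Col3a1 UMIs were seen in 90 cells, 67 of them from WT 1, with 1231 CPM of Tspan8, 1876 CPM of Fbln1, 381 CPM of Eln and 816 CPM of Col1a1. The 89 members with 5 to 9 Col3a1 UMIs, 47 of them from WT 1, held 1041 CPM of Tspan8, 1762 CPM of Fbln1, 747 CPM of Eln and 1654 CPM of Col1a1. Cells with at least 2 rule genes and a UMI of Pecam1 or Upk3b held 310 CPM of Tspan8, 537 CPM of Fbln1, 1331 CPM of Eln and 2408 CPM of Col1a1. Exactly 1 rule gene was seen in 2188 Col3a1+ cells, of which 10.6% fell in the main cluster, with 42.5 CPM of Tspan8.

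The share of members among Col3a1+ cells ranged more widely within a genotype than between genotypes. It was 6.98%, 0.447% and 2.45% in WT 1, 2 and 3 and 2.62%, 3.79% and 1.03% in Aromhum 1, 2 and 3. WT 1 was highest and WT 2 lowest, and the Aromhum mice lay between them. The 95% Wilson interval was 6.11% to 7.97% for WT 1 and 0.243% to 0.820% for WT 2, and such intervals cover counting error only. The means were 3.29% ± 3.35 in WT and 2.48% ± 1.39 in Aromhum mice (SD, n = 3 each), a difference of -0.815 percentage points (2-sided exact permutation test, p = 0.9, where the smallest possible p is 0.1). Without WT 1 the difference was 1.03 points, so 1 mouse set its direction. As a share of all cells past the limits, members made up 1.03% ± 1.17 in WT and 1.22% ± 0.811 in Aromhum mice (p = 0.9, exact permutation test, n = 3 each), and this difference changed sign without WT 2, WT 3 or Aromhum 2.

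**Figure D2:**
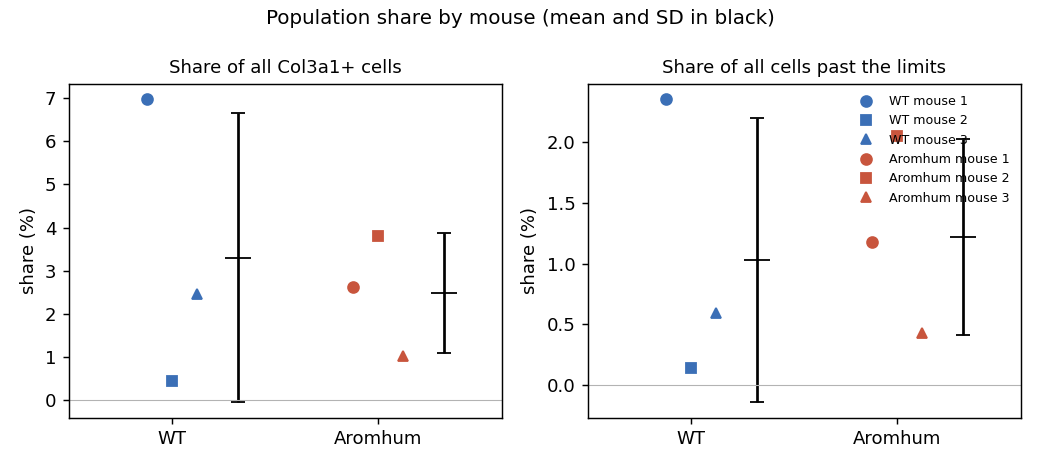
Share of members (%, y axis) among Col3a1+ cells (left) and among all cells past the limits (right), with 1 point a mouse and the mean and SD in black. WT 1 at 6.98% and WT 2 at 0.447% enclose all 3 Aromhum mice on the left.

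Levels were next compared between members and other Col3a1+ cells of the same mouse, as UMIs summed per mouse and scaled to CPM. Because the members were picked by their transcripts, these differences are descriptions with no test. They are given as log2 ratios after adding 5 CPM to both sides, which understates the difference of low genes. Of 5064 genes with a mean of at least 20 CPM in members, 357 (7.05%) were higher in members in all 6 mice and 537 (10.6%) were lower.

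The rule genes gave the scale. Tspan8 stood at 1329, 72.5 and 1151 CPM in members of WT 1, 2 and 3 and at 572, 466 and 698 CPM in those of Aromhum 1, 2 and 3, against 0.872 to 19.9 CPM in other Col3a1+ cells. Epyc stood at 435, 0 and 453 CPM in WT and 364, 558 and 578 CPM in Aromhum members. Lgr5 was at 215, 105 and 157 CPM in WT and 57.4, 68.7 and 76.5 CPM in Aromhum members, with every WT mouse above every Aromhum mouse. Egfl6 was at 90.5, 153 and 103 CPM in WT and 41.0, 64.2 and 63.1 CPM in Aromhum members, again without overlap. These genes chose the members, so their levels depend on the combinations that admitted the cells, which differed between mice. The genotype values of the rule genes in members are therefore a description with no test.

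Fgf9, a secreted growth factor of the fibroblast growth factor family that was not in the rule, followed Tspan8 and Lgr5 in the order of ratios. It was at 163, 40.3 and 161 CPM in WT members and 52.6, 81.5 and 138 CPM in Aromhum members, and at 3.28 to 8.43 CPM in other Col3a1+ cells. The median log2 ratio was 3.39, with a range of 2.05 to 4.24 over the mice, and WT 2 was lowest. Its gene spans chr14:58070547-58112720. The mean level was 12.6 CPM in the tenocyte gate and 2.01 CPM in the Dmkn gate.

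**Figure D3:**
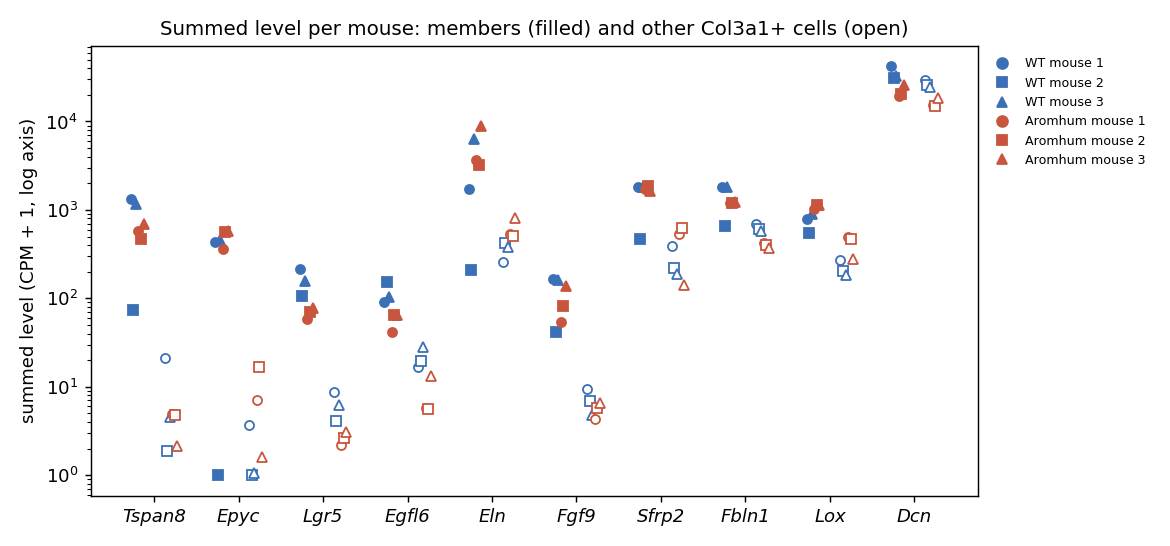
Summed level per mouse (CPM + 1, log y axis) of 10 genes (x axis) in members (filled) and other Col3a1+ cells (open), with color for genotype and shape for mouse number. Tspan8 and Lgr5 are higher in members in all 6 mice, while Epyc is at 0 in WT 2 and Eln is lower in members of WT 2 at 209 CPM.

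Elastic fiber genes were measured next. Of 22 genes of this list with at least 20 CPM, 10 were higher in members in all 6 mice and 4 were lower, beside 7.05% and 10.6% of all genes, with a median log2 ratio of 0.26 against -0.05 over all 5064 genes. Eln itself was at 1719, 209 and 6333 CPM in WT members and 3630, 3202 and 8796 CPM in Aromhum members, against 258 to 801 CPM in other Col3a1+ cells. It was higher in members of 5 mice, and WT 2 went the other way with a log2 ratio of -1.01.

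The crosslinking enzyme lysyl oxidase (Lox) was at 548 to 1136 CPM in members and 181 to 490 CPM in other Col3a1+ cells, a median log2 ratio of 1.46. Fbln1, the fibulin 1 of elastic fibers and basement membranes, was at 661 CPM in WT 2 and 1193 to 1827 CPM in the other mice, with a median ratio of 1.53. Mfap4, which binds elastin and microfibrils, had a median ratio of 1.22, and fibrillin 2 (Fbn2) one of 1.40. The other members of the list that were higher in 6 of 6 mice were Emilin1, Mfap2, Ltbp1, Ltbp2, Ltbp3 and Loxl3. Fbln5, which joins elastin to cells, was lower in members in all 6 mice with a median ratio of -0.70, as were Efemp1, Efemp2 and Loxl2. These ratios are against all other Col3a1+ cells pooled. The paper lists Eln, Fbln1, Mfap4 and Itgbl1 among the top genes of a cluster that it proposes might be tenocyte progenitors.

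Of 16 Wnt and R-spondin genes at 20 CPM or more, with the rule gene Lgr5 left out, 6 were higher in members in 6 of 6 mice and 1 was lower, with a median ratio of 0.20, beside 7.05% and 10.6% over all genes. Sfrp2, a secreted frizzled-related protein that binds Wnt ligands, was at 1835, 467 and 1831 CPM in WT members and 1723, 1847 and 1622 CPM in Aromhum members, a median ratio of 1.96. Sfrp1 had a median ratio of 1.37, Sfrp4 of 0.99, the Wnt antagonist Dkk2 of 0.90, the receptor Fzd2 of 0.74 and the ligand Wnt9a of 0.58. The 1 lower gene was the transcription factor Tcf7l2.

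Of 25 genes of the list for transforming growth factor beta (TGF-beta) and bone morphogenetic protein signaling, 5 were higher and 3 lower in members in every mouse, beside 7.05% and 10.6% of all genes. Follistatin (Fst), which binds activins, was at 353 to 1170 CPM in members and 177 to 424 CPM in other Col3a1+ cells, a median ratio of 1.37. Smad7 had a median ratio of 0.90 and Fstl3 one of 0.76. Inhba, which encodes the activin subunit that follistatin binds, was lower in members in all 6 mice with a median ratio of -2.77.

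Of 12 small leucine-rich proteoglycans other than the rule gene Epyc, 5 were higher in members in all 6 mice and 0 were lower, beside 7.05% and 10.6% of all genes, with a median ratio of 0.36. They were osteomodulin (Omd, 1.00), osteoglycin (Ogn, 0.72), Prelp (0.54), decorin (Dcn, 0.44) and biglycan (Bgn, 0.29). Epyc itself had no UMI in WT 2. Of 4 cartilage and perichondrial genes at 20 CPM or more, Epyc among them, 0 were higher in all 6 mice, beside 7.05% of all genes. Without WT 2, 1 of the 3 other than Epyc was higher in all 5 mice, beside 630 of 5059 genes. The median ratio of the 3 was then 0.47.

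The other genes among the 25 with the highest ratios are given singly. Sema3d and Sema3a, secreted semaphorins, had median ratios of 2.26 and 1.75, and Sema3d was at 72.5 to 117 CPM in members and 10.4 to 22.7 CPM in other Col3a1+ cells. Nrcam, a neuronal cell adhesion molecule, had a ratio of 1.70. The prolactin receptor (Prlr) had a ratio of 1.90 and the vasopressin receptor Avpr1a one of 1.87. The integrin-related Itgbl1 stood at 419 to 692 CPM in members with a ratio of 1.73, the basement membrane collagen Col4a6 at 1.88, and the proteoglycan Spock2 at 2.11. Wisp2, a matricellular protein induced by estrogen in breast cells, had a ratio of 2.01. The transcription factors Irx3 and Nfatc2 had ratios of 1.52 and 1.46, Mpp6 1.57, Gxylt2 1.48 and the small GTPase Rrad 1.5. Kcnj15 (1.74), Dapk2 (1.62) and Kcne4 (1.47) completed the set.

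The genes with the lowest ratios were of several kinds. Ren1, which encodes renin, was at 8.06 to 1429 CPM in members and 199 to 10664 CPM in other Col3a1+ cells, a median ratio of -3.87. Dermokine (Dmkn) and suprabasin (Sbsn), which mark the Dmkn gate, had ratios of -3.23 and -2.12. Myocilin (Myoc) had a ratio of -2.95, the lipase Lpl of -2.42 and the chemokine Ccl11 of -2.32. Cd74, an antigen presentation gene of immune cells, had a ratio of -2.35 and Sparcl1 one of -2.13. Aromhum 1 was nearest to no difference for Dmkn, at 241 CPM in members against 310 CPM in its other cells.

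**Figure D4:**
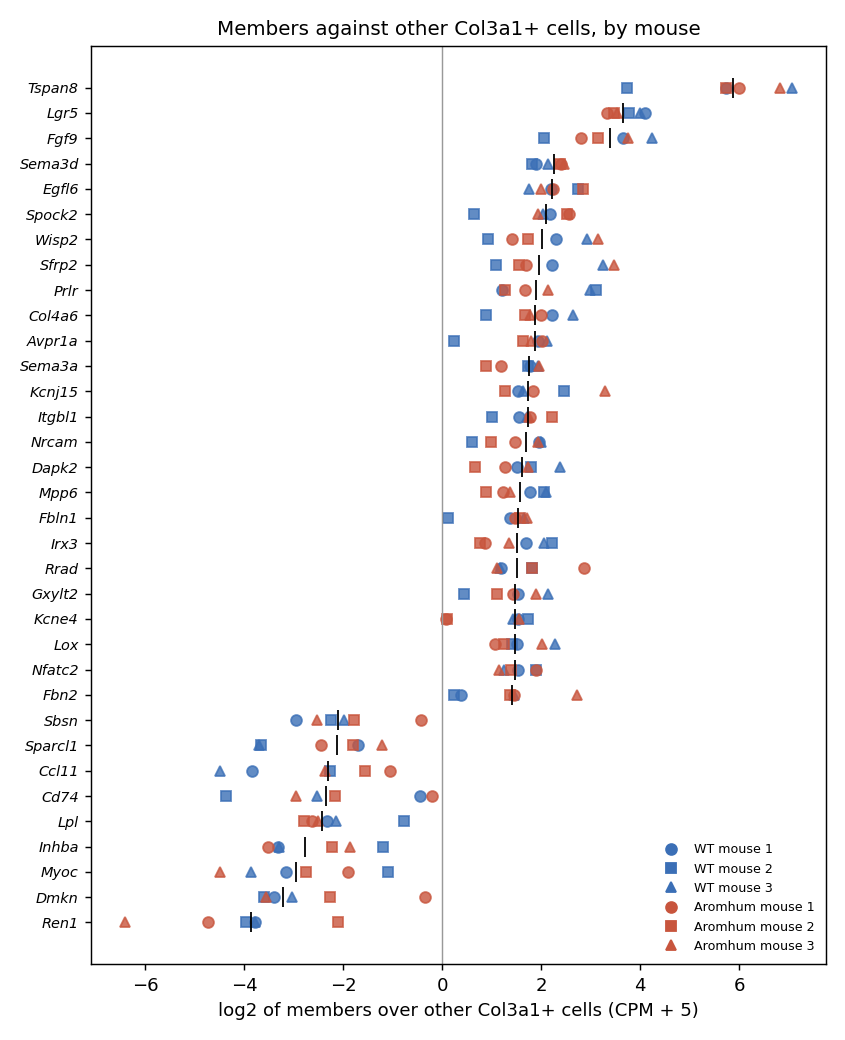
Log2 ratio of members over other Col3a1+ cells (x axis, CPM + 5) for the 25 highest genes and 9 of the 10 lowest (y axis), with 1 point a mouse and the median as a black bar. All 6 mice lie on the same side of 0 for each gene by the rule that chose the genes, and Ren1 has the lowest median at -3.87.

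Most fibroblast and collagen genes gave smaller ratios. Col1a1 was higher in members in 6 of 6 mice with a median ratio of 0.21, while Pdgfra, a receptor common to fibroblasts, was lower in 6 of 6 with -0.53. Of 22 collagen chains, 3 were higher (Col1a1, Col4a6 and Col16a1) and 6 were lower (Col4a1, Col4a2, Col5a3, Col6a3, Col15a1 and Col18a1) in every mouse, beside 7.05% and 10.6% of all genes. The estrogen receptor Esr1 was at 39.9 to 77.1 CPM in members, with a ratio of -0.32 and 2 of 6 mice higher. Tendon genes had a median ratio of 0.06, and of 13 only Tnmd, a tenocyte membrane protein, was higher in all 6 mice (1.04), beside 7.05% of all genes.

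Of 19 immediate early and stress genes, which many stimuli induce within a short time, 4 were higher in members in 6 of 6 mice, beside 7.05% of all genes. These were Fosb, Nr4a1, Dusp1 and Hspa1b, with median ratios of 0.74 to 0.82, and 0 of 19 were lower. The sum of 21 such genes was 21211 to 28618 CPM in WT members and 13272 to 18396 CPM in Aromhum members, without overlap. This was not particular to members. In other Col3a1+ cells the sum was 17939 to 20310 CPM in WT and 11331 to 14363 CPM in Aromhum mice, also without overlap. The part of these genes in other results was not tested.

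Members differed among themselves along the rule genes. The 381 members with both Tspan8 and Epyc held 153 CPM of Tnmd, 141 CPM of fibromodulin (Fmod), a tendon proteoglycan, and 33.6 CPM of the tendon matrix protein Comp. The 107 members without Tspan8 held 564, 949 and 459 CPM of the same genes. These sums run over mice that differ in tendon genes, and WT 2 gave 5 of the members without Tspan8 and 0 of those with both genes. In the 4 mice with at least 10 members of each kind, Tnmd was at 181 and 552 CPM in WT 1 and WT 3 and 62.1 and 90.6 CPM in Aromhum 1 and 2 with both genes, against 524, 733, 527 and 190 CPM without Tspan8. Fmod and Comp were likewise higher without Tspan8 in each of those 4 mice. The 61 members with Lgr5 and Egfl6 alone held 811, 1379 and 682 CPM, and 47.5% of them were in the main cluster, against 73.0% of the Tspan8 and Epyc members. Summed over mice, members with both genes also had more Pi16, a marker of adventitial fibroblasts, at 2306 CPM against 918 CPM in those without Tspan8. Over all members, Pi16 was higher in every Aromhum mouse than in every WT mouse. WT 1, 2 and 3 gave 89, 0 and 18 of the 381 members and 34, 5 and 10 of the 107. The part of genotype in the Pi16 values was not tested. Summed over mice, Eln was at 3027 CPM in members with both genes, 4568 CPM in members with Tspan8 and no Epyc, and 2991 CPM in members without Tspan8. The mice differed here, and in WT 1 the 3 values were 816, 2170 and 3730 CPM.

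The order of Fgf9 held in each mouse with enough cells. In members with Tspan8 and Epyc it was 178 and 209 CPM in WT 1 and WT 3 and 54.8 and 95.6 CPM in Aromhum 1 and 2. In those without Tspan8 it was 81.4 and 69.8 CPM in the same WT mice and 32.9 and 27.5 CPM in the same Aromhum mice. Members outside the main cluster held less Eln (2029 against 4037 CPM), less Fgf9 (68.4 against 128 CPM) and more Dmkn (226 against 17 CPM) than those inside it. The 388 cells of the main cluster that were not members held 3190 CPM of Eln and 99.9 CPM of Fgf9. Only the 4 rule genes were kept out of the clustering, so Eln, Fgf9 and Dmkn could shape the clusters. These differences are therefore a description with no test. Their size differed between mice, with Eln at 3109 CPM outside and 3236 CPM inside in Aromhum 2, and 2981 and 13262 CPM in Aromhum 3.

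The main question of the study was what aromatase excess does to LAM fibroblasts, and members were compared between genotypes with edgeR's quasi-likelihood test. In members, 7052 genes were tested and 1 (0.0142%) was called at an adjusted p under 0.05, while 762 (10.8%) had an unadjusted p under 0.05. Without regard to the test, 789 genes (11.2%) were higher in every Aromhum mouse than in every WT mouse and 450 (6.38%) were lower. Without WT 2 these shares were 18.7% and 10.6%. DESeq2 called 50 genes in the same sums. By edgeR, 0 were called without WT 1, WT 3, Aromhum 1 or Aromhum 2, 2 without WT 2 and 31 without Aromhum 3.

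The called gene was Adamtsl2, a secreted glycoprotein of the ADAMTS-like family that binds fibrillin microfibrils, at chr2:27079379-27108981. It stood at 6.96, 8.06 and 10.1 CPM in WT members and 56.1, 70.9 and 47.8 CPM in Aromhum members, from 15, 1 and 5 and 82, 160 and 25 UMIs. The lowest Aromhum mouse was well above the highest WT mouse. The log2 fold change was 2.84 with a standard error (SE) of 0.30 (edgeR quasi-likelihood test, Benjamini-Hochberg adjusted p = 0.0222), and without WT 2 it was 2.85 (adjusted p = 0.0408). The call was lost without WT 1 (adjusted p = 0.158), WT 3 (0.102), Aromhum 1 (0.149) or Aromhum 2 (0.131), with at least 3 rule genes (0.210) or without cells holding UMIs of other cell types (0.128), all by edgeR, with the log2 fold change at 2.56 to 3.70. In all Col3a1+ cells Adamtsl2 was also called, with a log2 fold change of 1.91 (adjusted p = 0.0202, edgeR).

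Of 25 elastic fiber genes tested, 1 was called and 9 were higher in every Aromhum mouse, beside 11.2% of all genes, with a median log2 fold change of 0.51 against 0.00 over all genes. DESeq2 called Fbn1, Fbn2 and Adamtsl2 of the 26 genes of the list it tested, beside 50 of 14683 genes in all. The 9 genes were Adamtsl2, Fbn1, Fbn2, Fbln2, Efemp2, Mfap5, Ltbp2, Lox and Loxl1, and 0 were lower in every mouse. Fbn2 was at 6.5, 8.06 and 24.1 CPM in WT and 49.9, 53.2 and 82.3 CPM in Aromhum members, a log2 fold change of 2.34 (SE 0.44, edgeR adjusted p = 0.119). Fbn1, the main fibrillin of microfibrils, was at 218 to 600 CPM in WT and 950 to 1190 CPM in Aromhum members (log2 fold change 1.38, edgeR adjusted p = 0.178). Eln overlapped between genotypes.

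Several genes of matrix and of the cell surface were among those next in the order of p, and they did not pass edgeR's test. Timp1, an inhibitor of metalloproteinases, was at 178, 177 and 88.5 CPM in WT and 884, 647 and 448 CPM in Aromhum members (log2 fold change 2.13, SE 0.35, edgeR adjusted p = 0.0922). Col8a1, a short-chain collagen, was at 71.0, 137 and 76.4 CPM in WT and 318, 242 and 538 CPM in Aromhum members (2.02, SE 0.34, edgeR adjusted p = 0.0922). Neither gene overlapped between genotypes. Wisp1, a matricellular protein of the same family as Wisp2, was at 11.6 to 22.1 and 54.0 to 57.4 CPM, and the surface protein Thy1 at 8.06 to 14.1 and 38.3 to 45.2 CPM, with the same adjusted p of 0.0922 by edgeR. DESeq2 called Timp1 (adjusted p = 5.47e-06), Col8a1 (3.22e-05) and Wisp1 (0.0352) in the same sums. In members of the main cluster alone, on 2 WT mice, edgeR called Timp1 and Col8a1 (adjusted p = 0.0311 each), and with at least 3 rule genes it called Timp1 and Fbn2 (0.0341 each). Of 26 fibrosis genes other than Col3a1, which is part of the rule, 8 were higher in every Aromhum mouse and 1, Tgfbi, was lower, beside 11.2% and 6.38% of all genes, with a median log2 fold change of 0.67. By edgeR 0 of them were called and 11 had an unadjusted p under 0.05, beside 10.8% of all genes. Of the 27 with Col3a1 counted, DESeq2 called 5, namely Timp1, Postn, Wisp1, Wisp2 and Inhba, beside 50 of 14683 genes in all. In all Col3a1+ cells edgeR called 12 of the 27 higher and 0 lower, beside 4.93% and 3.47% of all genes. The median log2 fold change there was 0.84. Among 25 tested collagen chains, 6 were higher in every Aromhum mouse, beside the same 11.2%, namely Col1a2, Col5a1, Col5a2, Col8a1, Col16a1 and Col3a1, the last of which is part of the rule.

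Of 14 estrogen response genes tested, 6 were higher in every Aromhum mouse, and 0 were lower, beside 11.2% and 6.38% of all genes, with a median log2 fold change of 0.46. By edgeR 0 were called and 5 had an unadjusted p under 0.05, beside 10.8% of all genes. DESeq2 called 5 of the 18 it tested, namely Greb1, Cilp, Inhba, Wisp2 and Igf1, beside 50 of 14683 genes in all. Greb1, a coactivator induced by the estrogen receptor, was at 9.75, 8.06 and 26.2 CPM in WT and 39.0, 93.9 and 61.2 CPM in Aromhum members (2.15, SE 0.46, edgeR adjusted p = 0.138). Wisp2 was at 369, 121 and 386 CPM in WT and 972, 1619 and 740 CPM in Aromhum members (1.81, SE 0.43, edgeR adjusted p = 0.171). Esr1 overlapped between genotypes, at 39.9 to 62.4 and 57.4 to 77.1 CPM. Inhba rested on 4, 2 and 0 UMIs in WT and 66, 202 and 25 in Aromhum members, with a log2 fold change of 4.67 (edgeR adjusted p = 0.0922), and without WT 2 it passed at 0.0408. Without cells holding UMIs of other cell types the log2 fold change was 2.38 (edgeR adjusted p = 0.337). In all Col3a1+ cells edgeR called 9 of 18 estrogen response genes higher and 0 lower, beside 4.93% and 3.47% of all genes. The median log2 fold change there was 1.43, against 0.46 in members. The list summed to 4243 to 7322 CPM in Aromhum members and 14439 to 19746 CPM in their other Col3a1+ cells. In WT mice the sums were 2310 to 4721 and 2866 to 8416 CPM.

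Other genes were at lower levels in Aromhum members without passing edgeR's test. Glypican 3 (Gpc3), a cell surface proteoglycan, was at 235, 322 and 416 CPM in WT and 97.1, 71.8 and 132 CPM in Aromhum members (log2 fold change -1.75, SE 0.29, edgeR adjusted p = 0.0922). Igfbp3, which binds insulin-like growth factors, was at 111 to 166 CPM in WT and 47.9 to 63.1 CPM in Aromhum members (-1.40, SE 0.24, edgeR adjusted p = 0.0922). Bambi, a decoy receptor of TGF-beta signaling, was at 94.6 to 121 and 36.3 to 53.3 CPM (-1.32, SE 0.22, edgeR adjusted p = 0.0922). All 3 genes were without overlap between genotypes, and DESeq2 called each, with adjusted p of 0.000252 for Gpc3, 0.0216 for Igfbp3 and 0.0397 for Bambi. Decorin (Dcn) was at 31338 to 42004 CPM in WT and 19616 to 25818 CPM in Aromhum members (-0.74, SE 0.28, edgeR adjusted p = 0.368).

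Without Aromhum 3, edgeR called Timp1, Wisp1 and Gpc3 (adjusted p = 0.0486 each), Thy1 (0.0499) and Inhba (0.0366). With no filter on low counts it called Timp1, Col8a1, Wisp1, Thy1, Fbn2, Wisp2, Inhba, Gpc3, Igfbp3 and Bambi, with adjusted p of 4.66e-07 for Inhba to 0.00722 for Bambi. Without WT 2, edgeR called none of these genes other than Adamtsl2 and Inhba. The log2 fold change was then 2.19 for Timp1, 2.22 for Col8a1, 1.83 for Wisp1, 1.55 for Thy1, 2.32 for Fbn2, 1.11 for Fbn1, 2.12 for Greb1 and 1.49 for Wisp2. It was -1.78 for Gpc3, -1.46 for Igfbp3, -1.31 for Bambi and -0.85 for Dcn, and the edgeR adjusted p of these 12 genes ran from 0.0792 for Thy1 to 0.216 for Dcn. List medians without WT 2 were 0.32 for elastic fiber genes, 0.72 for fibrosis genes without Col3a1, 0.53 for estrogen response genes, 1.05 for inflammation and complement genes and -0.04 for tendon genes. Then 10 of 25 elastic fiber, 13 of 26 fibrosis, 6 of 14 estrogen response and 12 of 26 inflammation and complement genes were higher in every Aromhum mouse, beside 18.7% of all genes, and 1 gene of each of these lists was lower, beside 10.6%. Of 24 collagen chains other than Col3a1, 10 were then higher and 2 lower.

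**Figure D5:**
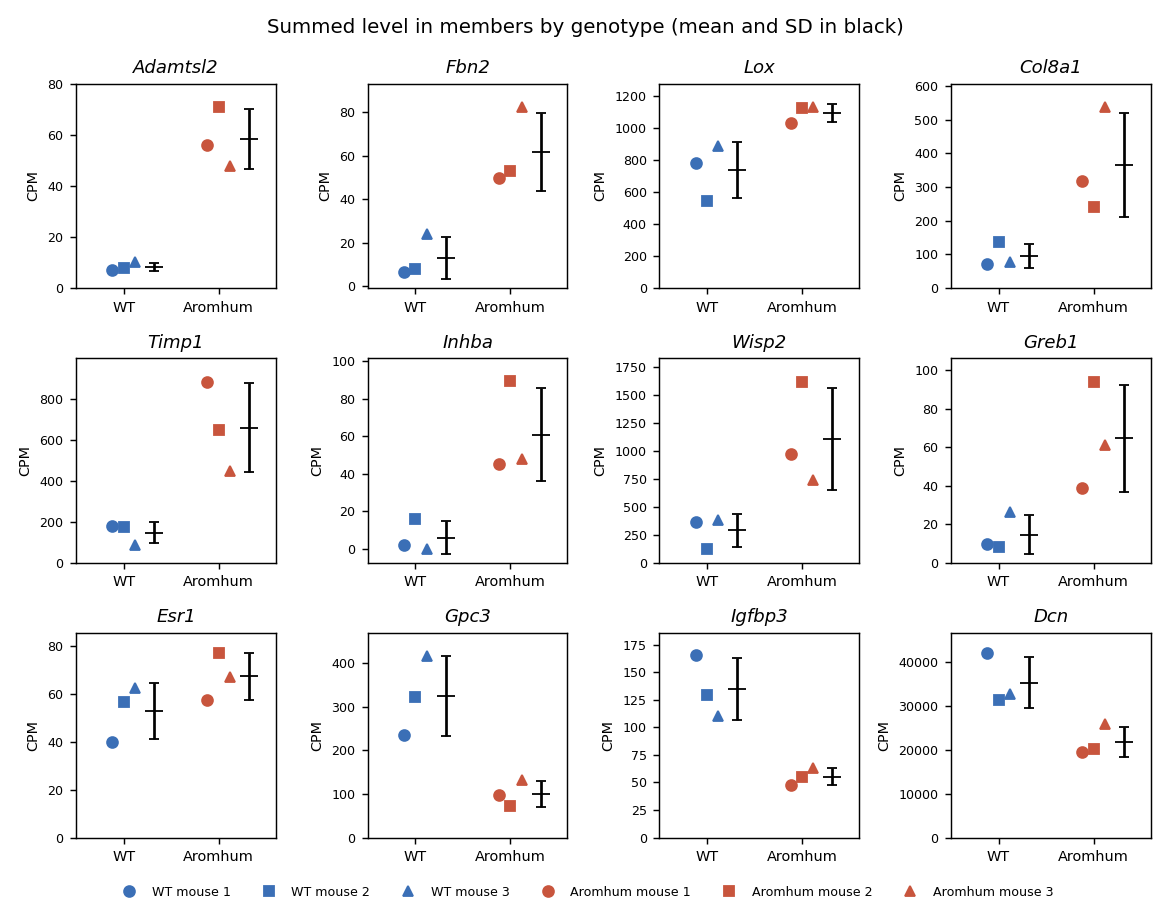
Summed level in members (CPM, y axis) of 12 genes in WT and Aromhum mice, with 1 point a mouse and the mean and SD in black. Adamtsl2, the 1 gene called, is at 6.96 to 10.1 CPM in WT and 47.8 to 70.9 CPM in Aromhum mice, while Esr1 overlaps.

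Of 26 inflammation and complement genes tested, 7 were higher in every Aromhum mouse (C3, C4b, Lbp, Il33, Il1rl1, Cxcl14 and Serpina3n), beside 11.2% of all genes, with a median log2 fold change of 0.95. By edgeR 0 were called and 12 had an unadjusted p under 0.05, beside 10.8% of all genes. DESeq2 called 2 of the 32 it tested, beside 50 of 14683 genes in all. Complement C3 was at 302 to 670 CPM in WT and 882 to 1695 CPM in Aromhum members. Of 21 immediate early genes, 6 were lower in every Aromhum mouse (Egr1, Ier3, Atf3, Zfp36, Dusp1 and Hspb1), beside 6.38% of all genes, and 0 were higher. Without WT 2 it was 11 of 21, beside 10.6%. In all Col3a1+ cells edgeR called 5 of the 21 lower and 0 higher, beside 3.47% and 4.93% of all genes. In the Wnt list without the rule gene Lgr5, 2 of 22 genes were lower in every Aromhum mouse, namely Wnt11 and Wif1, and 1, Ryk, was higher, beside 6.38% and 11.2% of all genes. Without WT 2, 4 of 22 were lower and 1 was higher, beside 10.6% and 18.7%. Tendon genes had a median of -0.53, which was -0.04 without WT 2, where 18 such genes summed to 10972 CPM in members against 3016 to 5118 CPM in the other mice. Of 15 tested, Egr1 and Wif1 were lower in every Aromhum mouse and 0 were higher, beside 6.38% and 11.2% of all genes. Without WT 2 it was 2 lower and 4 higher, beside 10.6% and 18.7%.

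In all Col3a1+ cells, which the rule genes did not choose, those genes could be tested. There, 1191 of 14171 genes (8.4%) were called, 699 (4.93%) higher and 492 (3.47%) lower in Aromhum mice, and 31.4% had an unadjusted p under 0.05. The number of calls depended on single mice, falling to 1 without Aromhum 1 or Aromhum 2, to 15, 2 and 4 without WT 1, WT 2 and WT 3, and rising to 3572 without Aromhum 3. Egfl6 averaged 23.4 ± 5.06 CPM in WT and 8.26 ± 3.86 CPM in Aromhum mice (SD, n = 3 each), and it fell by 1.51 on the log2 scale (SE 0.31, edgeR adjusted p = 0.0395). The call was lost when WT 1, 2 or 3 or Aromhum 1 or 2 was left out, with adjusted p of 0.0855 to 0.139 by edgeR, and under the study's limits on cells, with a log2 fold change of -0.68. Lgr5 had a log2 fold change of -2.07 (SE 0.65, edgeR adjusted p = 0.0874) and Tspan8 one of -1.90 (SE 1.19, edgeR adjusted p = 0.312). Without WT 1 these were -1.05 and -0.29, and they were -1.17 and -1.02 under the study's limits. DESeq2 called Lgr5 (adjusted p = 0.0102). Epyc had one of 0.08 (SE 1.25, edgeR adjusted p = 0.971), and its sign changed without WT 2, WT 3 or Aromhum 2. In summed cells, fewer cells of a type and less RNA per cell cannot be told apart.

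The genotype effect in members was compared with that in other Col3a1+ cells, and 6 of 12666 genes (0.0474%) were called by edgeR, 2 (0.0158%) with a higher and 4 (0.0316%) with a lower effect in members. An unadjusted p under 0.05 was seen for 5.04% of genes. Col8a1, at chr16:57624258-57754737, had a larger effect in members. It was at 143, 264 and 250 CPM in WT and 207, 182 and 480 CPM in Aromhum other Col3a1+ cells, which overlap, and the log2 fold changes differed by 1.64 (SE 0.25, edgeR adjusted p = 0.0274). Emb, an adhesion molecule of the immunoglobulin family, had a smaller effect in members. It was at 124, 56.4 and 46.3 CPM in WT and 139, 337 and 57.4 CPM in Aromhum members, against 98.6, 28.9 and 23.8 CPM and 574, 625 and 195 CPM in other Col3a1+ cells, a difference of -2.16 (SE 0.32, edgeR adjusted p = 0.0274). Without WT 2 both were called, with adjusted p of 0.0077 for Col8a1 and 0.0109 for Emb by edgeR. With at least 3 rule genes, on 2 WT mice, the Col8a1 difference was 0.63 and the call was lost (edgeR adjusted p = 0.838), while Emb was called. The other 4 genes, Hbb-bt, Mmp9, Csf3 and C1qa, had few UMIs in the members of most mice. Other Col3a1+ cells were not the same mix of cells in the 2 genotypes. For example, the cluster led by Uts2 and Ramp3 held 18, 2 and 5 cells in WT 1, 2 and 3. In Aromhum 1, 2 and 3 it held 911, 1130 and 256. The paper reports high Emb in its Esr1-high fibroblasts, which came mostly from Aromhum mice. The part of this mix in the differences was not tested.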

How the data were processed

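The authors deposited raw UMI counts for 16494 genes in 63647 barcodes of 6 libraries. Per the submitters' notes and the study's methods, reads were counted with Cell Ranger 3.0.2 on mm10 with the human CYP19A1 gene added. The members, the gene lists and the tests were chosen with earlier results of these data known. UMIs were summed per mouse over members, all Col3a1+ cells and other Col3a1+ cells, and genotypes were compared with the quasi-likelihood test of edgeR 4.0.16 in R 4.3.3, after TMM scaling and the filterByExpr step. P-values were adjusted by Benjamini-Hochberg over every gene in the fit, with calls at 0.05. The difference in genotype effect was fitted with a term for each mouse. Shares were compared with a 2-sided exact permutation test over mice. The code was tested on simulated data. Clustering used scanpy 1.11.5 with 2000 variable genes, 30 principal components, 20 neighbors and Leiden at resolution 1 without the rule genes, and doublets were marked with Scrublet in each library. Member sums held 124131 to 2257608 UMIs a mouse, so 1 UMI equals 0.443 to 8.06 CPM.

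Genes were named by rule: genes of the lists, genotype and interaction calls, and the 25 highest and 10 lowest median ratios with 1 direction in 6 mice. The genes in the next order of p, Nkain4 and the other leading genes of clusters were named after their values were seen. Alternatives were DESeq2 1.42.0, RLE size factors, no filter, the replicate block, each mouse left out, doublets left out, at most 5% mitochondrial UMIs, at least 3 rule genes, and the limits the study states (200 to 2500 genes, 5% mitochondrial). The study's further removal of outliers by median absolute deviation was not repeated in that setting. Members of the main cluster alone, and members with no UMI of 7 marker genes of other cell types, were added after the data had been seen. A few genes that the rule names are not reported here.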

Additional observations from a re-analysis of the deposited data

Results flagged for a closer look

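Each of these 6 genes was singled out because its genotype effect differed between members and other Col3a1+ cells by edgeR's test of that difference, given here as the Aromhum over WT log2 fold change in members minus that in other Col3a1+ cells. Col8a1 differed by 1.64 and Emb by -2.16, with values given above, and both were called with each mouse left out, while Col8a1 was not called with at least 3 rule genes (0.63). Hbb-bt, a hemoglobin chain of red blood cells, differed by 7.19, and 132 of its 140 UMIs in members came from Aromhum 1. Mmp9, a gelatinase, differed by -11.88 on 8 UMIs in members, 7 of them in WT 1, against 0 in the other Col3a1+ cells of WT mice, so the size of that value has no meaning as a fold. Csf3, a cytokine, differed by -2.66 and had 47, 0 and 2 UMIs in WT and 15, 50 and 0 in Aromhum members. C1qa, a complement gene of macrophages, differed by -3.94 and had 69, 0 and 0 UMIs in WT and 22, 14 and 0 in Aromhum members. Without WT 1, Hbb-bt (13.6), Mmp9 (-3.82), Csf3 (-2.04) and C1qa (7.51) were not called. Without Aromhum 1, Hbb-bt (3.65), Csf3 (-2.41) and C1qa (-3.86) were not called. The part of blood and immune RNA in these values was not tested.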

How the results depend on the processing

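The difference in share among Col3a1+ cells was -2.24 to 1.03 percentage points when each mouse was left out, and 0.158 under the study's limits. Among all cells it was -0.255 to 0.857 points with a mouse left out and -0.0787 with at least 3 rule genes. Genes called in members numbered 0 to 31 with a mouse left out, 50 by DESeq2, 177 with no filter on low counts, 3 with at least 3 rule genes and 7 in members of the main cluster, the last 2 on 2 WT mice. With the replicate block 25 were called, among them Adamtsl2, Timp1, Col8a1, Wisp1, Fbn2, Inhba, Gpc3 and Bambi. Deviations of same-numbered mice had correlations of 0.205, -0.00546 and 0.12, against -0.22 to 0.0796 for mice of unlike number. These values do not settle whether the numbers stand for pairs. The labels do not tie a number to a date, so the numbers were not taken as pairs. Members under the study's limits could not be fitted, with too few mice at 10 members. Differences in genotype effect numbered 8 to 34 with a mouse left out, 32 at 5% mitochondrial UMIs, 64 with no filter, 110 with at least 3 rule genes, 103 in the main cluster and 24 without UMIs of other cell types. These settings, other than the filter, also left out WT 2, which had under 10 members in them, and leaving out WT 2 alone gave 32. C1qa reversed to 6.08 in the main cluster and ranged from -4.53 to 7.51 with a mouse left out. In all Col3a1+ cells, calls numbered 2678 by DESeq2, 0 under the study's limits and 1 to 3572 with a mouse left out, and Epyc ranged from -0.67 to 1.55. The causes were not tested. With 10 members in WT 2, low genes are limited by depth there.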
